A study of Homo sapiens with 9 samples.

Results

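The endoplasmic reticulum (ER) chaperone messages are the 10 messenger RNAs of HSPA5, HSP90B1, CALR, CANX, PDIA3, PDIA4, PDIA6, P4HB, HYOU1 and XBP1. They were chosen by gene name as RNAs translated at the ER that encode its chaperones and folding enzymes, and the rule itself uses no measured value, although the set was proposed with earlier results of these data known. All 10 were found among the 51105 genes listed in both deposited tables, and all 10 passed the filter on low values, a mean above 50 normalized counts in both tables, as did 14581 genes in all. XBP1 is a transcription factor and not a chaperone, so the name of the set describes 9 of its members.

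The study asked which RNAs associate with the nuclear poly(A) binding protein PABPN and which with its cytoplasmic counterpart PABPC. The cell line HEK293T, grown from embryonic human kidney and in wide laboratory use, was studied with wildtype genotype in every group, and all cells were fixed in 0.1% formaldehyde for 10 min. Each of 3 biological replicates gave 1 lysate, which was shared out between an antibody against PABPN and one against PABPC, so there were 3 libraries of input RNA, 3 of PABPN RNA immunoprecipitation (RIP) and 3 of PABPC RIP, made from ribodepleted RNA and read as single ends of 75 nt. The input had no immunoprecipitation, and no library of an isotype control antibody was analysed here.

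The values are pooled. For each gene a table gives 1 mean over 6 libraries, the 3 inputs with the 3 libraries of 1 RIP, in read counts divided by library size factors. No value per library was analysed, so no replicate spread, standard deviation or test stands behind any difference given here, and the replicate numbers could not be used. The means of a table added up to 45.5 M normalized counts for PABPN and 43.7 M for PABPC. Of 6 genes that HEK293T cells are known to use, among them VIM and PAX2, all 6 had means above 50 in both tables, whereas of 8 genes of other cell types COL1A1 alone did, with 455 normalized counts in the PABPN table.

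The ER is where secreted and membrane proteins are made and folded. Its lumen holds an Hsp70 and an Hsp90 chaperone, the lectins calreticulin and calnexin, which hold newly made glycoproteins, and protein disulfide isomerases, which form and reshuffle disulfide bonds. When unfolded proteins accumulate, the sensor IRE1 cuts a short intron out of the XBP1 message, and the transcription factors XBP1 and ATF6 raise the messages of these chaperones. Poly(A) tails are bound by PABPN in the nucleus and by PABPC in the cytoplasm, where translation takes place, and messages with a signal sequence are translated on the ER surface.

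The ends of the coding sequences are shown because they are what most of the proteins share in sequence. Each line gives the last 27 coding bases with the stop codon in lower case at the end, and the capitals mark the 4 codons before it, which in soluble ER proteins encode the signal by which KDEL receptors bring them back from the Golgi.
HSPA5: gatacagcagaaAAAGATGAGTTGtag
HYOU1: cggcctttgaagAACGACGAACTAtaa
HSP90B1: tctacagctgaaAAAGATGAATTGtaa
CALR: cccggccaggccAAGGACGAGCTGtag
CANX: agaaacagaaagCCACGAAGAGAGtga
P4HB: cagaaagctgtgAAAGATGAACTGtaa
PDIA3: aagaagaaggcaCAGGAGGATCTCtaa
PDIA4: ctgagcaggaccAAGGAAGAGCTTtga
PDIA6: gatgacttagggAAAGATGAGTTGtga
XBP1: ccaagctggaagCCATTAATGAACtaa
In 8 of the 10 genes the marked codons ended with codons for a pair of acidic residues and a leucine. The exceptions were CANX, whose product spans the membrane, and XBP1. The sequences are from GENCODE release 44 on hg38.

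A common scale for both tables came from the input libraries, which are part of each. A gene seen with 1 read in a single input library has a mean set by that library's size factor and nothing else, and such values appeared in both tables for 3 libraries, with ratios of 1.18, 1.16 and 1.16. Their mean, 1.17, was applied to the PABPC table, and every mean from that table is given on this scale, after the mean of the PABPN table where a pair is given. The input part of a gene is then the same in both means, and the ratio of the means, input with PABPC RIP over input with PABPN RIP, has the direction of PABPC RIP over PABPN RIP and lies nearer to 1. It is called the smallest fold here, since it is the least difference between the RIPs that the pooled means allow. How far it lies from the fold between the RIPs depends on a gene's input level, which the pooled means do not give. Its order among genes therefore need not be that of the folds between the RIPs. The difference between the means of the RIPs also follows from the tables, free of input. Both are relative to the authors' size factors, so they compare a gene with the other genes and say nothing of the total RNA recovered.

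All 10 ER chaperone messages were higher in PABPC RIP than in PABPN RIP, as were 48.1% of all genes and 53.5% of protein coding genes. The smallest fold was 1.5 or more for 8 of them, against 23.6% of all 14581 genes and 26.5% of the 12452 protein coding genes, and none was higher in PABPN RIP, where 18.1% of all genes and 12.1% of protein coding genes passed the same limit. For 5 of them, XBP1, CALR, CANX, PDIA6 and P4HB, it was 2 or more, against 12.2% of all genes and 13.8% of protein coding genes. That count depends on the scale: 3 members (XBP1, CALR and CANX) reached 2 with each table divided by its sum, and 2 (XBP1 and CALR) with each table divided by its median protein coding gene. The median over the members was 1.95-fold, or 0.97 on the log2 scale, beside -0.04 for all genes and 0.06 for protein coding genes. Reads of introns and exons were counted together, so these are values of spliced and unspliced RNA at once, and in a lysate of many cells a lower share of cells with a message cannot be told apart from less of it per cell.

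**Figure D1:**
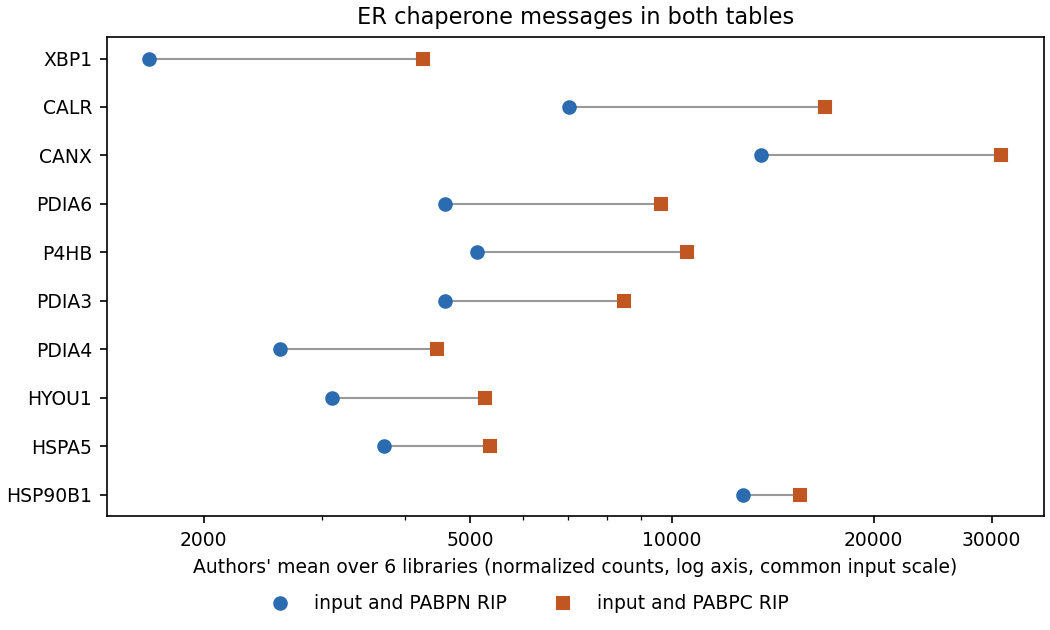
Authors' mean over 6 libraries for each ER chaperone message, in normalized counts on a log axis, with circles for input and PABPN RIP and squares for input and PABPC RIP, both on the input scale. Each square lies to the right of its circle, by 1.22-fold for HSP90B1 and by 2.56-fold for XBP1, and no error is drawn because the values are pooled.

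The Hsp70 and Hsp90 chaperones had the 3 lowest smallest folds of the set. HSPA5 (BiP), the ER Hsp70, lies at chr9:125234853-125241382 on the minus strand with 8 exons. Its mean was 3719 normalized counts beside PABPN RIP and 5356 beside PABPC RIP, a smallest fold of 1.44. HSPA5 was therefore short of the 1.5-fold limit, at the percentile 71.1 of protein coding genes.

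HSP90B1 (GRP94), the ER Hsp90, lies at chr12:103930107-103953931 on the plus strand with 18 exons. It had the lowest smallest fold of the 10, 1.22, from means of 12755 and 15535 normalized counts. By the difference of the RIPs it was not the lowest, because its means were high in both tables: the PABPC RIP mean exceeded the PABPN RIP mean by 5560 normalized counts for HSP90B1 and by 3275 for HSPA5. HYOU1 (GRP170), which exchanges the nucleotide of HSPA5 and is itself a large Hsp70 relative, lies at chr11:119044188-119057227 on the minus strand with 26 exons. Its smallest fold, 1.69 from means of 3110 and 5257 normalized counts, was past the limit.

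The lectin chaperones had higher smallest folds than these, although the folds between the RIPs need not have this order. CALR, the soluble calreticulin, lies at chr19:12938578-12944489 on the plus strand with 9 exons and had means of 7019 and 16935 normalized counts, a smallest fold of 2.41. CANX, the membrane-bound calnexin, lies at chr5:179678628-179731641 on the plus strand with 15 exons. Its means were 13562 and 30998 normalized counts, a smallest fold of 2.29, and its difference between the RIPs, 34871 normalized counts, was the highest of the set. CALR and CANX do the same work on glycoproteins in the lumen and in the membrane, and their smallest folds were at the percentiles 91.9 and 90.4 of protein coding genes.

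The smallest folds of the 4 disulfide isomerases lay between. P4HB (PDI), the founding member of the family and also a subunit of prolyl 4-hydroxylase, lies at chr17:81843159-81860856 on the minus strand with 11 exons and had a smallest fold of 2.06 from 5112 and 10523 normalized counts. PDIA6, at chr2:10783391-10837977 on the minus strand with 13 exons, had a smallest fold of 2.11 from 4576 and 9641 normalized counts. PDIA3 (ERp57), which works on the glycoproteins held by CALR and CANX, lies at chr15:43746394-43773279 on the plus strand with 13 exons. Its mean in the PABPN table, 4577 normalized counts, was nearly that of PDIA6, and its mean in the PABPC table was lower, 8477, so its smallest fold was 1.85. PDIA4 (ERp72), at chr7:149003062-149028662 on the minus strand with 10 exons, had the lowest value of the family, 1.72 from 2597 and 4455 normalized counts. P4HB and PDIA6 were nearly level, and without values per library no order among the 4 can be tested.

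XBP1 had the highest smallest fold of the 10, 2.56, and the lowest mean in both tables, 1660 and 4246 normalized counts. It lies at chr22:28794555-28800597 on the minus strand with 5 exons. The intron that IRE1 removes is shown because its removal decides which XBP1 protein is made, and it is 26 bases in capitals with 2 flanking bases on each side, in the coding part of exon 4 of 5, at chr22:28796128-28796153 on the minus strand of hg38 as GENCODE places it.
XBP1: ccGCAGCACTCAGACTACGTGCACCTCTgc
The first base in capitals equals the base after the capitals, so a placement 1 base further on would leave the same joined RNA. Both forms of the message, with and without the 26 bases, fall within the same gene and were counted as 1, so the values of XBP1 cannot be split into cut and uncut RNA.

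Per kilobase of the deposited gene length, the order of levels was another one. In the PABPN table HSP90B1 had the highest level, 2717 normalized counts per kilobase, followed by CALR with 2586 and CANX with 1951. In the PABPC table CALR came before the others with 6240 per kilobase, followed by CANX with 4459 and HSP90B1 with 3309. The isomerases lay from 787 (PDIA4) to 1117 (PDIA6) beside PABPN RIP and from 1351 (PDIA4) to 2354 (PDIA6) beside PABPC RIP. HSPA5 had 948 and 1366, XBP1 548 and 1402, and HYOU1 403 and 681, the lowest in both. Neighbours in this order cannot be separated, since no spread between libraries is known. Intronic reads are counted but intron bases are not part of the length, which raises the levels per kilobase. The deposited length also exceeds that of the transcript whose exons are given above for all members but HSPA5, which lowers them unevenly. It was 5231 against 2437 bases for P4HB and 3921 in both for HSPA5. The order per kilobase therefore depends on the length used, and another length was not tested.

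**Figure D2:**
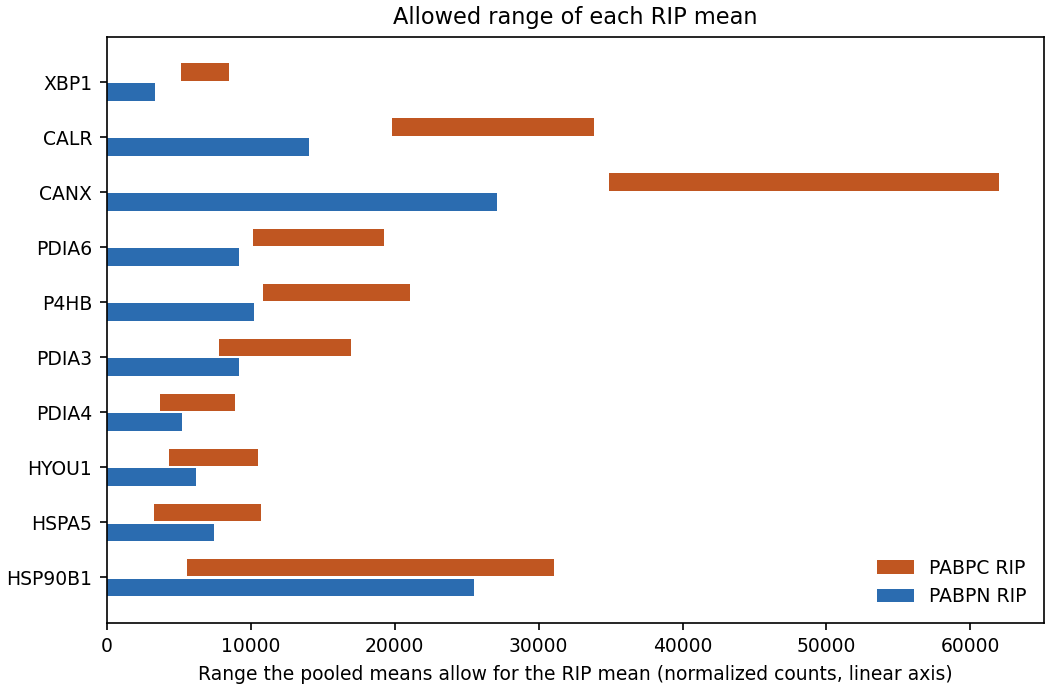
Range that the pooled means allow for the mean of each RIP, in normalized counts on a linear axis, for the 10 ER chaperone messages, with PABPN RIP from 0 to its highest possible value and PABPC RIP from the difference of the RIPs to its highest possible value. On the input scale, the bars of XBP1, CALR, CANX, PDIA6 and P4HB do not overlap, and those of HSP90B1 overlap the most, with 25509 as the highest value for PABPN RIP and 5560 as the lowest for PABPC RIP.

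The pooled means also bound each RIP on its own. The PABPN RIP mean of CALR was at most 14038 normalized counts and its PABPC RIP mean at least 19831, whatever the level of the input, given the input scale. For XBP1 these bounds were 3320 and 5172, for CANX 27124 and 34871, for PDIA6 9153 and 10129, and for P4HB 10224 and 10822. In these 5 messages the possible values of both RIPs do not overlap on the input scale. This needs a ratio of 2 or more, which XBP1 and CALR kept on both other scales, CANX with 2.04 on that of the table sums and not with 1.92 on that of the median protein coding gene, and PDIA6 and P4HB on neither. On the input scale a bound against input follows for the same 5, and their mean in PABPC RIP was at least 1.56 times that of input for XBP1, 1.41 for CALR, 1.29 for CANX, 1.11 for PDIA6 and 1.06 for P4HB. For PDIA3, PDIA4, HYOU1, HSPA5 and HSP90B1 the pooled means leave the side of input on which PABPC RIP lies unknown, and for all 10 they leave the side of PABPN RIP unknown.

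Counting error is small beside these differences. The log2 smallest fold had a counting standard error of 0.0062 (CANX) to 0.017 (XBP1). It was computed as if both means were independent, although they share the input libraries, so it is approximate. It covers the sampling of reads and not the spread between replicates. The step that could move every value together is the common scale: with the sums of the tables in its place, which gives a plain ratio and not a bound, the fold of HSP90B1 was 1.08, and with the median protein coding gene in its place it was 1.02, without a change of direction for any member. In the latter setting 6 members were past 1.5-fold towards PABPC RIP, as were 16.0% of all genes, and 33.6% of all genes were past it towards PABPN RIP. Of all genes past 1.5-fold, 56.6% were higher in PABPC RIP on the input scale, 39.4% on the scale of the table sums and 32.2% on that of the median protein coding gene.

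**Figure D3:**
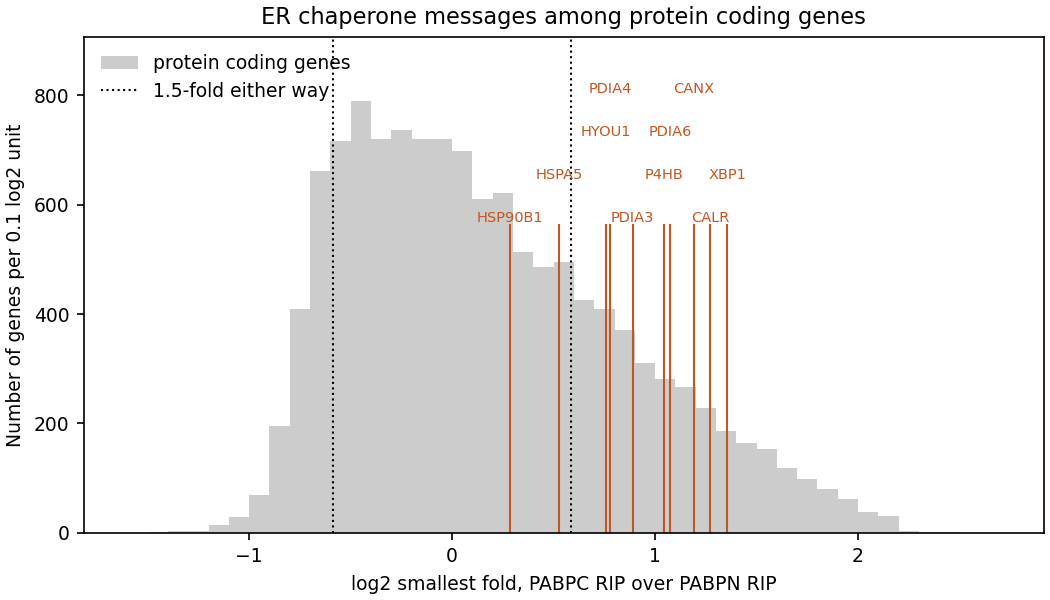
Number of protein coding genes per 0.1 unit of log2 smallest fold, PABPC RIP over PABPN RIP, over 12452 genes, with the 10 ER chaperone messages as labelled lines and 1.5-fold either way as dotted lines. The members lie from 0.28 (HSP90B1) to 1.35 (XBP1), right of the peak of the distribution, between the percentiles 61.3 and 93.3.

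The members differed from each other in coding length, which the choice of the set did not use. XBP1 has 786 coding bases, CALR 1254, PDIA6 1323, PDIA3 1518, P4HB 1527 and CANX 1779, and these 6 had the 6 highest smallest folds. PDIA4 has 1938, HSPA5 1965, HSP90B1 2412 and HYOU1 3000 coding bases. The rank correlation of coding bases with the log2 smallest fold was -0.88 over the 10 messages (Pearson -0.74), given as a description of genes that share all libraries. Without XBP1 it was -0.83, without HSP90B1 -0.87 and without HYOU1 -0.88. Over 12375 protein coding genes with a coding length it was -0.49, and their median coding length was 1452 bases. A lower smallest fold of longer messages is thus not particular to the ER chaperones. The smallest fold is a bound, so whether the folds between the RIPs have the same order was not tested. Against the deposited gene length the rank correlation over the members was -0.38, against the number of introns -0.42, and against the span of the gene on the chromosome -0.12.

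**Figure D4:**
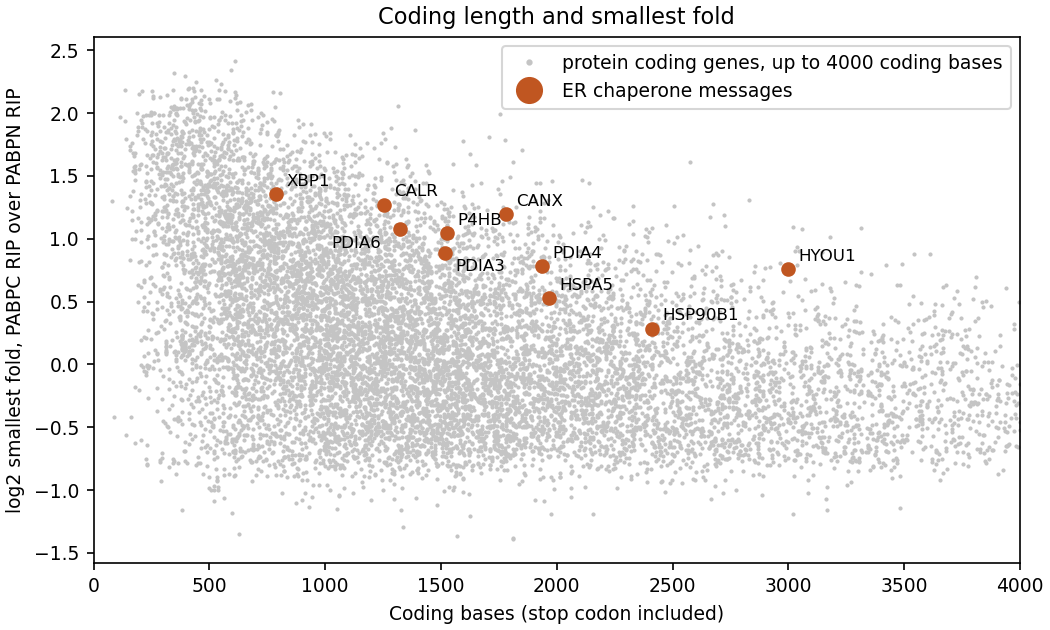
Log2 smallest fold, PABPC RIP over PABPN RIP, against coding bases with the stop codon, for protein coding genes of up to 4000 coding bases (grey) and the 10 ER chaperone messages (labelled). Both the grey points and the members lie lower at greater coding length, and HYOU1, with 3000 coding bases and a value of 0.76, lies above HSPA5 and HSP90B1, which are shorter.

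Other genes of the ER folding pathway were described by 8 lists, which together hold 103 genes outside the 10. All 103 passed the filter on low values. The smallest fold was 1.5 or more with PABPC RIP higher for 63 of them (61.2%), against 23.6% of all genes and 26.5% of protein coding genes. With PABPN RIP higher it was so for 2, against 18.1% of all genes and 12.1% of protein coding genes. Their median was 0.73 on the log2 scale, beside 0.97 for the ER chaperone messages and 0.06 for protein coding genes. The same shares stand beside the counts of each list below. The lists differed in how many of their genes followed the members.

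The oxidoreductases outside the set, which relay oxidizing power or resemble the disulfide isomerases, had 8 of 15 genes past the limit towards PABPC RIP and none towards PABPN RIP, with a median log2 of 0.62. PRDX4, a peroxide-consuming enzyme of the ER, had a smallest fold of 2.92, and TXNDC5, a disulfide isomerase, 2.45. At the other end were PDIA5, another disulfide isomerase, and QSOX2, a sulfhydryl oxidase, which were higher in PABPN RIP by smallest folds of 1.42 and 1.43. The disulfide isomerase PDIA5 thus went the opposite way from the 4 isomerases of the set, short of the limit.

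The list of ER Hsp70 partners and exchange factors also holds the CNPY genes, HSPA13 and CRELD2. It had 9 of 15 genes past the limit towards PABPC RIP and none the other way, with a median log2 of 0.73. SDF2L1, which binds ER J proteins, had 3.46, and MANF, which binds HSPA5, 2.33. SIL1, the second exchange factor of HSPA5 beside HYOU1, was higher in PABPN RIP by 1.45, and DNAJC1, a membrane-bound J protein, by 1.47. Both exchange factors therefore lay on opposite sides of 1, HYOU1 with 1.69 towards PABPC RIP.

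The prolyl isomerases and calcium binding proteins of the ER had 8 of 12 genes past the limit towards PABPC RIP and 1 towards PABPN RIP, with a median log2 of 0.94. PPIB (cyclophilin B) had 3.09 and FKBP2 2.65, whereas FKBP10, which acts on collagen, was higher in PABPN RIP by 1.14 and FKBP11 by 1.85. The glycan trimming and lectin genes had 5 of 12 towards PABPC RIP and 1 towards PABPN RIP, with a median log2 of 0.34. In that list LMAN2, a cargo lectin, had 2.19 and PRKCSH, the glucosidase II beta subunit, 1.71, while MAN1B1, a mannosidase, had 1.06, which turns to PABPN RIP on the scales of the table sums and of the median protein coding gene. UGGT2, a relative of the glucosyltransferase that sends unfolded glycoproteins back to CALR and CANX, was higher in PABPN RIP by 1.57.

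The translocon, signal peptidase and oligosaccharyltransferase list, whose products bring new chains into the ER and modify them, had 21 of 24 genes past the limit towards PABPC RIP and none the other way, with a median log2 of 1.19. OST4, a subunit of the oligosaccharyltransferase, had 3.90 and SSR2, a subunit of the translocon-associated complex, 3.31. SPCS2, of the signal peptidase, had 1.08, which turns on the same scales, and TUSC3, of the oligosaccharyltransferase, was higher in PABPN RIP by 1.26. All 3 KDEL receptors, which return the soluble chaperones to the ER, were past the limit towards PABPC RIP, KDELR1 with 3.13, KDELR2 with 2.72 and KDELR3 with 2.30.

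ER-associated degradation, which removes proteins that fail to fold, had 8 of 13 genes towards PABPC RIP and none towards PABPN RIP, with a median log2 of 0.63. SELENOS had 2.61 and the ubiquitin-conjugating enzyme UBE2J1 2.20, whereas the ubiquitin ligase SYVN1 had 1.06, which also turns on those scales, and UBE2G2 was higher in PABPN RIP by 1.03. The sensors and regulators of the unfolded protein response differed from XBP1. Of 9 genes 1 (11.1%) was past the limit, ATF4 with 2.79, beside 26.5% of protein coding genes towards PABPC RIP. The median log2 was 0.03, a sign that turns on the scales named above. MBTPS2, a protease that releases ATF6, had 1.49, and the other named regulators were higher in PABPN RIP by small amounts, ATF6B by 1.13 and the sensor EIF2AK3 (PERK) by 1.17. IRE1 itself, encoded by ERN1, was higher in PABPN RIP by 1.06, beside 2.56 towards PABPC RIP for its substrate XBP1; ERN1 was added to the named genes after its value was seen.

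**Figure D5:**
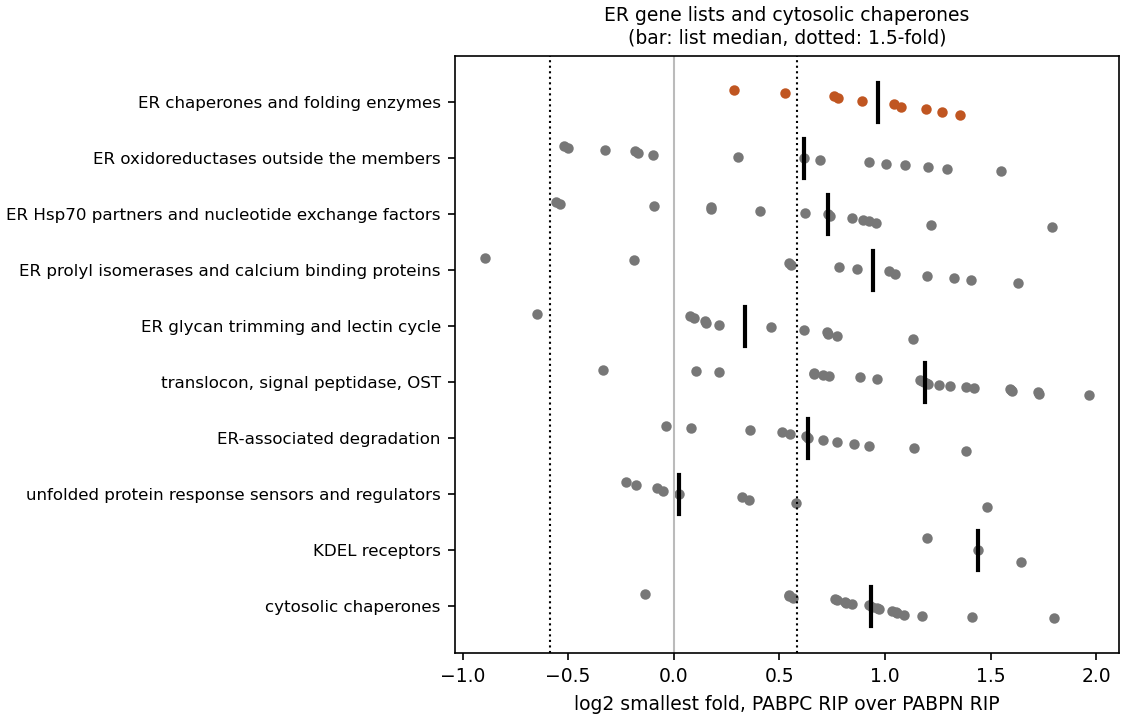
Log2 smallest fold, PABPC RIP over PABPN RIP, of each gene of the ER chaperone set, of 8 other ER lists and of the cytosolic chaperones, with the median of each list as a bar and 1.5-fold either way as dotted lines. The translocon list has its median at 1.19 and the KDEL receptors at 1.44, above the 0.97 of the ER chaperone messages, and the unfolded protein response list has its median at 0.03.

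The most similar set outside the ER is that of the cytosolic chaperones, whose messages are translated on free ribosomes. There 16 of 20 genes (80%) were past the limit towards PABPC RIP, against 26.5% of protein coding genes, and none towards PABPN RIP. The median log2 was 0.93, so count and median lay close to the 8 of 10 and 0.97 of the ER chaperone messages. HSPB1, a small heat shock protein, had 3.48 and DNAJB1, a J protein, 2.66, while HSPA4, an Hsp70 relative, had 1.46 and DNAJB6, a J protein, was higher in PABPN RIP by 1.10. The cytosolic relatives of HSPA5 and HSP90B1 had higher smallest folds than these, 1.76 for HSPA8, 1.76 for HSP90AA1 and 1.70 for HSP90AB1, named for their kinship after their values were seen.

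By the means in both tables, the genes outside the lists nearest to the medians of the set, 4577 and 9040 normalized counts, were OAT, RSL1D1 and WDR77. The distance was 0.047 log2 units for OAT, 0.048 for RSL1D1 and 0.067 for WDR77, with each table's pooled mean as 1 coordinate. Their smallest folds were 2.05, 1.89 and 2.05.

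Some members have copies elsewhere in the genome or share bases with other genes. PDIA3P1, a transcribed pseudogene of PDIA3, had means of 134 and 132 normalized counts, far below PDIA3, and a smallest fold of 0.987. The other copies found by name had means under 3 normalized counts, HSP90B3P with 2.50 and 1.99, HSPA5P1 with 2.48 and 2.41, and PDIA3P2 with 0.823 and 0.972. How reads shared between a gene and such a copy were assigned was not tested. Bases where genes overlap had been removed from the authors' annotation. In GENCODE release 44, HSP90B1, CALR, CANX, PDIA3, PDIA6, P4HB and HYOU1 each have at least 1 overlapping gene, and HSPA5, PDIA4 and XBP1 have none. The authors used an earlier GENCODE release with NCBI genes added, so which members lost bases was not determined.

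The promoters show what the set shares in the genome. The ER stress response element has CCAAT and CCACG with 9 bases of any kind between them. A second, shorter form has ATTGG and CCACG with 1 base between them, and ATF6 is known to bind both. They were searched on both strands from 250 bases before to 50 after each start in 35116 RefSeq promoters of GRCh38.p14, which held 15 promoters of 9 of the 10 members. The long form was in promoters of 6 of the 9 members, against 0.0916% of 27305 genes. That share includes the members, which are 6 of the 25 genes with the long form. The element is named for the response that raises these messages, so its presence in this set is not an independent finding. The capitals in the lines below mark its fixed bases.
HSPA5, chr9:125241391-125241409: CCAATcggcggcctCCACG
HSP90B1, chr12:103930216-103930234: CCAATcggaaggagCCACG
HSP90B1, chr12:103930321-103930339, opposite strand to the gene: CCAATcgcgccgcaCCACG
CALR, chr19:12938384-12938402, opposite strand to the gene: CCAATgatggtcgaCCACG
CANX, chr5:179698778-179698796: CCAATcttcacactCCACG
PDIA6, chr2:10812853-10812871: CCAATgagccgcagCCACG
XBP1, chr22:28800603-28800621: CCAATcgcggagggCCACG
HYOU1 held the short form at chr11:119057274-119057284 and chr11:119057380-119057390, each as ATTGGaCCACG on the strand opposite to the gene, and 0.0541% of promoters held it. The parts alone are common, CCACG in 38.1% and CCAAT in 34.6% of promoters. A match says only that these letters lie in the window. The members with the long form had both the highest and the lowest smallest folds of the set, XBP1 with 2.56 and HSP90B1 with 1.22.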

How the data were processed

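RNA of 9 HEK293T libraries was measured, 3 of input, 3 of PABPN RIP and 3 of PABPC RIP. The authors aligned reads to hg38 with STAR, counted introns and exons of each gene together with featureCounts 2.0.2 against a GENCODE annotation without overlapping stretches, and compared each RIP with input in DESeq2 (tools and build per the submitters' processing notes). The signal column deposited by the authors, baseMean, is the mean over 6 libraries of counts divided by size factors, and another column is the gene length in bases. The remaining deposited columns hold the authors' own comparison of RIP with input (log2 fold change, its standard error, statistic, p-value and adjusted p-value) and were not used.

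The tables had 51234 rows (PABPN) and 51391 rows (PABPC). Of repeated rows, 123 in each, the first was kept. Size factors, 0.895 to 1.13 in the PABPN table and 0.783 to 1.22 in the PABPC table, were read from the 6 most frequent non-zero means. All 6888 and 7105 genes with means under 0.6 were sums of whole reads under them (tolerance 1e-06). Input libraries were those whose single-read genes appeared in both tables. Finding the input libraries and their ratios was tested on simulated data, in which few genes differed between the RIPs. How the scale behaves when many genes differ was not tested. Depth per library was not analysed.

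Genes counted as past the limit had a smallest fold of at least 1.5. The named genes were the members, the 2 highest and the 2 lowest of each list and the 3 nearest genes. The members and lists were chosen with earlier results of these data known. Python 3.11.15, pandas 2.3.3, numpy 2.4.6 and scipy 1.17.1 were used, with coordinates from GENCODE release 44 and promoters from RefSeq. Alternatives were the scale that joins the tables, the fold limit, the filter on low values, summing repeated rows and, chosen after seeing the data, the lowest and highest input ratio.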

Additional observations from a re-analysis of the deposited data

How the results depend on the processing

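The direction of the 10 members was the same in all 50 values under the alternatives. Each setting multiplied all 10 folds by 1 common factor, so these are not 50 separate checks. HSP90B1 came nearest to turning, with 1.02 on the scale of the median protein coding gene. The scale mattered most for the size. The median smallest fold of the members, 1.95, was 2.001 with folds centred on the median gene, 1.74 with each table divided by its sum and 1.64 with each table divided by its median protein coding gene, which moved all genes by 0.04, -0.17 and -0.25 on the log2 scale. Higher in PABPC RIP were 56.6% of all calls as reported and 61.1%, 39.4% and 32.2% in these settings. The percent of all genes past 1.5-fold towards PABPN RIP, 18.1, was 28.5 with the sums and 33.6 with the median protein coding gene, and the genes of the ER lists past it in that direction, 2, were 6 and 7. With the fold limit at 2, 5 members were past it, as were 12.2% of all genes towards PABPC RIP and 1.17% towards PABPN RIP, and with the lower limit 9 members and 33.1% of all genes towards PABPC RIP and 34.2% of all genes towards PABPN RIP. The 5 members at 2 or more were 3 with the sums and 2 with the median protein coding gene. Other filters on the mean, summed repeated rows and the lowest or highest input ratio left every count within 1.5 times and the 8 members past 1.5-fold at 8 where recomputed. The filter still turned which direction had more calls over all genes. With a mean above 0, 27.0% were past 1.5-fold towards PABPN RIP and 19.6% towards PABPC RIP. These were 21.6% and 21.2% with a mean above 10, and 14.6% and 25.4% with a mean above 200. No paired analysis was possible because the pooled columns carry no replicate, and for the same reason leaving out each replicate was not run. Depth limits little for the members, whose means are at least 1660 normalized counts.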

Other observations

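Outside the members, 19 genes held CCAAT and CCACG with 9 bases between them, the long ER stress element, in a RefSeq promoter, 16 were in the tables and 10 passed the filter on low values. Of these 10, 3 were past 1.5-fold towards PABPC RIP, SERP1 with 2.38, TMEM120A with 1.72 and CRELD2 with 1.67, and none towards PABPN RIP. This share is near the 23.6% of all genes and 26.5% of protein coding genes past the limit towards PABPC RIP. The median log2 smallest fold was 0.21, beside 0.97 for the ER chaperone messages and 0.06 for protein coding genes. SERP1, which protects membrane proteins of the ER under stress, and CRELD2, an ER protein of the disulfide network, are known ER genes. FICD, which modifies HSPA5 by adding AMP, had 0.986, which turns to PABPC RIP with folds centred on the median gene. ERO1B, an oxidase of the disulfide isomerases, had 0.797, below 1 and thus higher in PABPN RIP.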
